A study of Mus musculus with 16 samples.

Results

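The plasma cell program genes described here were Mzb1, Irf4, Bhlha15, Prdm1, Tnfrsf17, Derl3, Pou2af1, Fkbp11, Sdc1 and Eaf2, 10 of the 22298 mouse genes counted in the tumors. They were chosen by their place in the plasma cell program and by their measured levels in these same tumors, so the differences between the groups are given as a description. The counts of them past a threshold in the fit over all genes stand beside the share over all genes and support nothing. RNA was sequenced from 16 abdominal tumors, of which 8 belonged to the vehicle group and 8 to the IL-33 treatment group. The hosts were wild-type 615-line mice of 6 weeks of age, matched for sex. Every mouse, in either group, had received 500000 MFC cells into the peritoneal cavity. MFC is a murine gastric cancer cell line, so all tumors came from 1 line. The vehicle group was given PBS and the IL-33 treatment group 20 μg/kg IL-33, an alarmin cytokine of the IL-1 family, both by the intraperitoneal route every other day. The methods give fewer mice per group for the abdominal model than the 8 tumors sequenced, and which tumors shared a mouse is not given in the sources used here. The spread below is therefore that between tumors, it may in part be technical, and p-values over tumors that share a mouse are too small.

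Plasma cells are the antibody-secreting end stage of the B cell lineage. IRF4 and BLIMP-1 (from Prdm1) switch off the B cell program and, with XBP1, switch on a secretory one in which the endoplasmic reticulum (ER) expands to fold and export immunoglobulin. BHLHA15 (MIST1) acts late in that step, MZB1 and DERL3 work in the ER, and BCMA (from Tnfrsf17) and syndecan-1 (from Sdc1) are surface proteins used to recognise the cells. Several of these genes are also used outside the lineage, Prdm1 in T cells and macrophages and Sdc1 in epithelium.

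A pair of tumors stood apart from the rest. IL-33 replicate 7 carried transcripts of the female reproductive tract, with a summed level of 1244 CPM over 6 genes such as Ovgp1. CPM are read counts scaled to the total of the library. That sum was 2.75 to 8.20 CPM in the vehicle tumors and 2.84 to 7.71 CPM in the remaining IL-33 tumors. Vehicle replicate 4 had the lowest scaling factor (0.64, against 0.90 to 1.24 in the other tumors). Total counts ran from 14139268 to 24290794 per tumor, and each tumor differed from every other by more than sampling noise. Of the 12 epithelial genes checked, Krt8 was the most abundant, at a mean of 543 CPM in the vehicle group, whereas Epcam was at 0.34 CPM there. In bulk tumors, fewer plasma cells and less RNA per plasma cell cannot be told apart.

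The start regions of the genes were read first, because factors of the program recognise known short motifs. RefSeq start-site windows on GRCm38.p6, each from 250 bases before to 50 bases after a start, were found for 9 of the 10 genes (12 windows in all), with none for Mzb1. Both strands were searched for 5 motifs. The ER stress element, CCAAT followed after 9 bases by CCACG, to which XBP1 and ATF6 bind, lay, among these genes, in the Derl3 window and in 0.119% of all 32851 windows. The motif TGACGTG, also recognised by XBP1, lay in the windows of Pou2af1 and Fkbp11 and in 2.01% of all windows. A pair of GAAA motifs 2 bases apart, the form bound by IRF factors, lay in the Tnfrsf17 window and in 3.44% of all windows. CAGCTG, an E-box of the kind bound by BHLHA15, lay in 1 of the Eaf2 windows and in 16.3% of all. The octamer ATGCAAAT, at which the Pou2af1 product acts as a coactivator, lay in none of the 12 windows and in 1.74% of all. These matches are a description of letters, and no bases beyond these windows were searched. The Fkbp11 window with TGACGTG is not shown. As examples of the ER and IRF motifs, the Derl3, Pou2af1 and Tnfrsf17 windows are printed, with the motif in capitals on whichever strand it lay.
Derl3, chr10:75893148-75893447, plus strand: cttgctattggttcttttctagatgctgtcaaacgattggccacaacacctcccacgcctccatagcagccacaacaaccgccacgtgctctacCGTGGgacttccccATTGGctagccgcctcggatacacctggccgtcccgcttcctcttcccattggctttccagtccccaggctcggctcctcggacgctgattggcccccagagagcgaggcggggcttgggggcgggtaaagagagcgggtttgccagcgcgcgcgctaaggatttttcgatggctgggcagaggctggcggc
Pou2af1, chr9:51213440-51213739, plus strand: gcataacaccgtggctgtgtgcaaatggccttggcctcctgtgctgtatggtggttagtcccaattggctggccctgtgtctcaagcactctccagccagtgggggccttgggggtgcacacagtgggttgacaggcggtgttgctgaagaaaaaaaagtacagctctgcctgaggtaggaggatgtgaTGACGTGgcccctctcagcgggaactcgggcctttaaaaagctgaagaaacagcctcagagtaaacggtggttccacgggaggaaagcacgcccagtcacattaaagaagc
Tnfrsf17, chr16:11313559-11313858, plus strand: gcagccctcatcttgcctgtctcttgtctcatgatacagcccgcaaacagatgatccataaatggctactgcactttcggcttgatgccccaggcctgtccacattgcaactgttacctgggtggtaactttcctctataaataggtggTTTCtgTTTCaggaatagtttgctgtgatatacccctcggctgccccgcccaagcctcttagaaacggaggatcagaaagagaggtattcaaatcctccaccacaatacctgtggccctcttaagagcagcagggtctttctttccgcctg

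**Figure D1:**
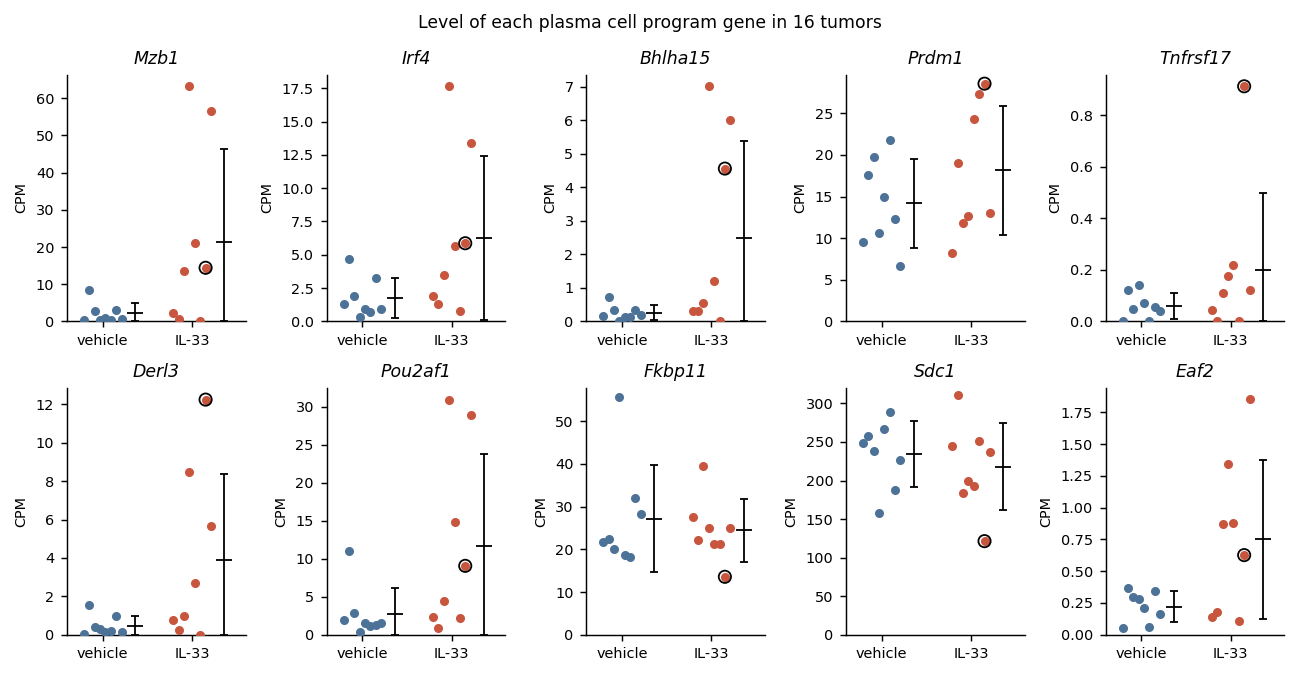
Level of each of the 10 genes in CPM (vertical axis, linear, from 0) in the 8 vehicle tumors and the 8 IL-33 tumors. Each point is 1 tumor, the ringed point is IL-33 replicate 7, and the bar beside each group is its mean ± SD with the lower end cut off at 0. Mzb1, Irf4, Bhlha15, Derl3 and Pou2af1 were high in a few IL-33 tumors and low in the others, while the group means of Prdm1, Fkbp11 and Sdc1 lay within 1 SD of each other.

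Among the transcription factors, Irf4, which starts the program, was at 0.35 CPM in the lowest vehicle tumor, 1.10 CPM at the median and 4.72 CPM in the highest. In the IL-33 tumors it was at 0.76 CPM in the lowest, 4.57 CPM at the median and 17.7 CPM in the highest. The groups overlapped, with 4 IL-33 tumors higher than any vehicle tumor. The fitted log2 fold change of Irf4 was 1.75 ± 0.61 (SE), and 1.80 ± 0.63 without IL-33 replicate 7. Bhlha15, the late secretory regulator, was at most 0.74 CPM in the vehicle group, with a median of 0.18 CPM and a lowest value of 0. Among the IL-33 tumors its median was 0.88 CPM, with 7.01 CPM in replicate 4, 6.01 CPM in replicate 8, 4.56 CPM in replicate 7 and no read in replicate 6. Bhlha15 thus split the IL-33 group into 3 tumors far above the rest and 5 at 1.21 CPM or below, and its log2 fold change was 3.14 ± 0.94 (SE), or 3.01 ± 0.90 without IL-33 replicate 7.

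Pou2af1, the coactivator of octamer-bound genes in B cells and their descendants, was at 0.35 CPM in the lowest vehicle tumor, 1.503 CPM at the median and 11.04 CPM in the highest, replicate 2. The corresponding IL-33 tumors were at 0.84, 6.77 and 30.9 CPM. Only 3 IL-33 tumors exceeded all vehicle tumors, and the log2 fold change was 2.07 ± 0.73 (SE) with all tumors and 2.14 ± 0.75 without IL-33 replicate 7. Eaf2, a partner of the ELL elongation factors, was a low transcript, at 0.05 to 0.37 CPM in vehicle tumors (median 0.25 CPM) against 0.11 to 1.85 CPM in IL-33 tumors (median 0.75 CPM). Its reads numbered 31 in all vehicle tumors together and 119 in all IL-33 tumors. The 5 highest tumors were all from the IL-33 treatment group, and Eaf2 had a log2 fold change of 1.58 ± 0.65 (SE), or 1.67 ± 0.62 without IL-33 replicate 7.

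Prdm1, which encodes BLIMP-1, did not follow the other factors. It was at 6.63, 13.7 and 21.8 CPM in the lowest, median and highest vehicle tumors and at 8.27, 16.03 and 28.6 CPM in the corresponding IL-33 tumors. The 2 IL-33 tumors with the most Irf4 and Mzb1, replicates 4 and 8, were below the group's median of Prdm1. In contrast, IL-33 replicate 6, near the bottom for Irf4 and Bhlha15 though not for Pou2af1 (2.22 CPM), was at 27.4 CPM of Prdm1. The groups overlapped, and 3 IL-33 tumors (replicates 5, 6 and 7) were higher than any vehicle tumor. The log2 fold change of Prdm1 was 0.27 ± 0.29 (SE) with all tumors and 0.21 ± 0.30 without IL-33 replicate 7.

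Of the ER genes, Mzb1, a chaperone-like protein of B cells and plasma cells that helps assemble and secrete immunoglobulin, spanned the widest range. It was at 0.42 CPM in the lowest vehicle tumor, 0.75 CPM at the median and 8.58 CPM in the highest, replicate 2. In the IL-33 tumors it was at 0.11 CPM in the lowest, 13.9 CPM at the median and 63.2 CPM in the highest. The 5 highest tumors were IL-33 tumors, and the lowest of all 16 tumors was also an IL-33 tumor, replicate 6. The log2 fold change of Mzb1 was 3.24 ± 0.98 (SE) with all tumors and 3.33 ± 1.01 without IL-33 replicate 7. The annotation places exons of Mzb1 and SPATA24 over each other on the same strand, so reads of that stretch could have been given to either gene or to none.

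Derl3, a derlin that serves the export of misfolded proteins from the ER, was at 0.05 to 1.53 CPM in the vehicle tumors (median 0.23 CPM). Over the IL-33 tumors the median was 1.84 CPM, the lowest tumor had no read and the highest, replicate 7, was at 12.3 CPM. Of all Derl3 reads in the IL-33 treatment group, 36.7% came from replicate 7, against 7.45% of the Mzb1 reads. The log2 fold change of Derl3 went from 2.87 ± 0.95 (SE) to 2.45 ± 0.89 without that tumor. Fkbp11, a peptidyl-prolyl isomerase of the ER, was at 18.1, 22.1 and 55.7 CPM in the lowest, median and highest vehicle tumors and at 13.6, 23.7 and 39.6 CPM in the IL-33 tumors. Its highest level of all was in vehicle replicate 4 and its lowest in IL-33 replicate 7, the tumors with the lowest and highest scaling factors. The log2 fold change of Fkbp11 was -0.35 ± 0.32 (SE), and it turned to 0.10 when vehicle replicate 4 was left out or DESeq2 was used.

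The surface genes showed no common pattern. Sdc1, which encodes syndecan-1, was at 158, 243 and 289 CPM in the lowest, median and highest vehicle tumors and at 121, 218 and 311 CPM in the IL-33 tumors. The tumor with the least Sdc1 was IL-33 replicate 7, and the log2 fold change went from -0.16 ± 0.19 (SE) to -0.05 ± 0.14 without it. Per kilobase of exon, Sdc1 was the most abundant of the 10 genes in both groups, at 61.5 CPM per kb in the vehicle group against 10.01 for Fkbp11, 2.54 for Prdm1 and 1.78 for Mzb1. In the IL-33 treatment group Mzb1 was at 17.6 CPM per kb and Fkbp11 at 9.03. Tnfrsf17, which encodes BCMA, a receptor for plasma cell survival signals, was close to absent. It had 8 reads in the 8 vehicle tumors together, with at most 2 in a tumor, and 29 in the IL-33 tumors, 16 of them in replicate 7. Replicate 7 was at 0.91 CPM and no other IL-33 tumor exceeded 0.22 CPM. The log2 fold change of Tnfrsf17 was 1.36 ± 0.93 (SE) and dropped to 0.58 ± 0.76 without IL-33 replicate 7. Most tumors lay at or under the floor of 3 counts, so that differences between single tumors were not detectable at this depth.

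**Figure D2:**
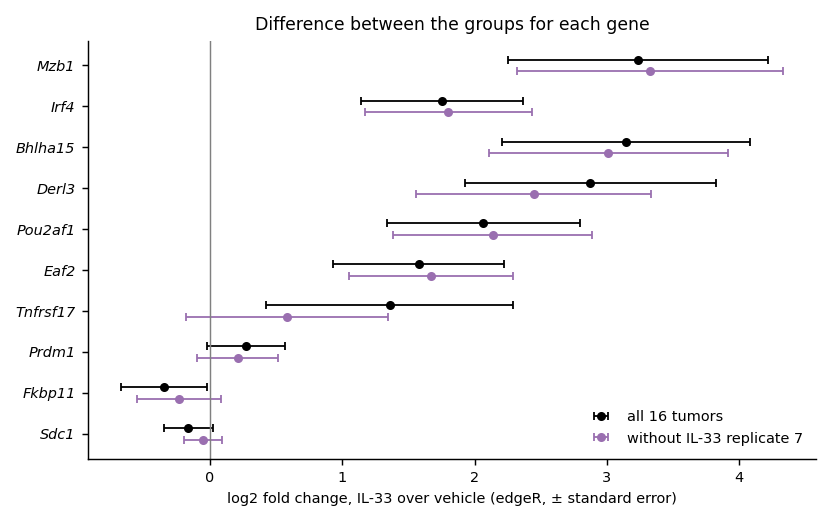
Fitted log2 fold change of each gene, IL-33 over vehicle (horizontal axis), with its standard error as the bar, for all 16 tumors (black) and without IL-33 replicate 7 (purple). The 6 genes at the top lie above 1 in both fits, and the bars of Prdm1, Fkbp11 and Sdc1 lie near 0.

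Of the 10 genes, 8 had a fitted fold change above 0, as did 58.3% of all genes tested. The median log2 fold change was 1.67 over the 10 genes and 0.06 over all 16817 genes tested. An unadjusted p under 0.05 and a higher level with IL-33 was reached by 6 of the 10 (Mzb1, Irf4, Bhlha15, Derl3, Pou2af1 and Eaf2), where 9.99% of all genes tested reached it. None of the 10 was lower at that threshold, where 1.17% of all genes were. Without IL-33 replicate 7 the same 6 genes reached it, with 1.83% of 15803 genes higher and 2.29% lower. Eaf2 lost it without IL-33 replicate 8. Since the genes were selected on this contrast, nothing is read from these shares. Over all genes, 0 passed an adjusted p of 0.05 in edgeR's quasi-likelihood test with Benjamini-Hochberg adjustment, with 1680 higher and 196 lower at an unadjusted p under 0.05. DESeq2 also gave 0 genes at that adjusted p, with 424 higher and 267 lower unadjusted. The adjusted p of Mzb1 was 0.418 in edgeR's test.

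The 10 genes were next compared with each other across tumors, as Pearson's r of log2(CPM + 0.5) without a p, since the genes share libraries and tissue. A grouping of 6 genes was made after the values were seen. Mzb1, Irf4, Bhlha15, Derl3, Pou2af1 and Eaf2 were correlated with one another at r between 0.83 and 0.97 over 16 tumors (15 pairs, median 0.90), and at 0.84 to 0.97 without IL-33 replicate 7. Within the groups r was 0.32 to 0.95 over the 8 vehicle tumors and 0.76 to 0.97 over the 8 IL-33 tumors. Since the 6 genes were grouped with these values seen, nothing is read from how high they are. The closest pair was Mzb1 and Irf4, with r = 0.97 over all tumors and 0.93 within the vehicle group. Tnfrsf17 followed the 6 genes less closely, at 0.47 to 0.78, and at 0.62 to 0.78 without IL-33 replicate 7. Its counts lay at or under the floor of 3 in most tumors, so every r and rho of Tnfrsf17 given here rests on few reads.

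None of Prdm1, Fkbp11 and Sdc1 had a high positive r with the 6 genes over all tumors. Their r against them lay between -0.58 and 0.22 over 16 tumors, -0.43 and 0.18 without IL-33 replicate 7, -0.51 and 0.51 over the vehicle tumors, and -0.71 and 0.15 over the IL-33 tumors. The lowest of these was that of Sdc1 with Derl3 in the IL-33 tumors. Among these 3 genes r was between -0.63 and -0.06 over all tumors and between -0.78 and 0.31 without IL-33 replicate 7. The r of Fkbp11 with Sdc1 went from -0.21 to -0.78 without that tumor and was -0.96 within the vehicle group and 0.39 within the IL-33 treatment group. That of Prdm1 with Fkbp11 was -0.63, and -0.54 without that tumor. Sdc1 had a negative r with Tnfrsf17 (-0.82, or -0.66 without IL-33 replicate 7), which was near the floor in most tumors. The median r over all 45 pairs of the 10 genes was 0.22, and 0.31 without IL-33 replicate 7.

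**Figure D3:**
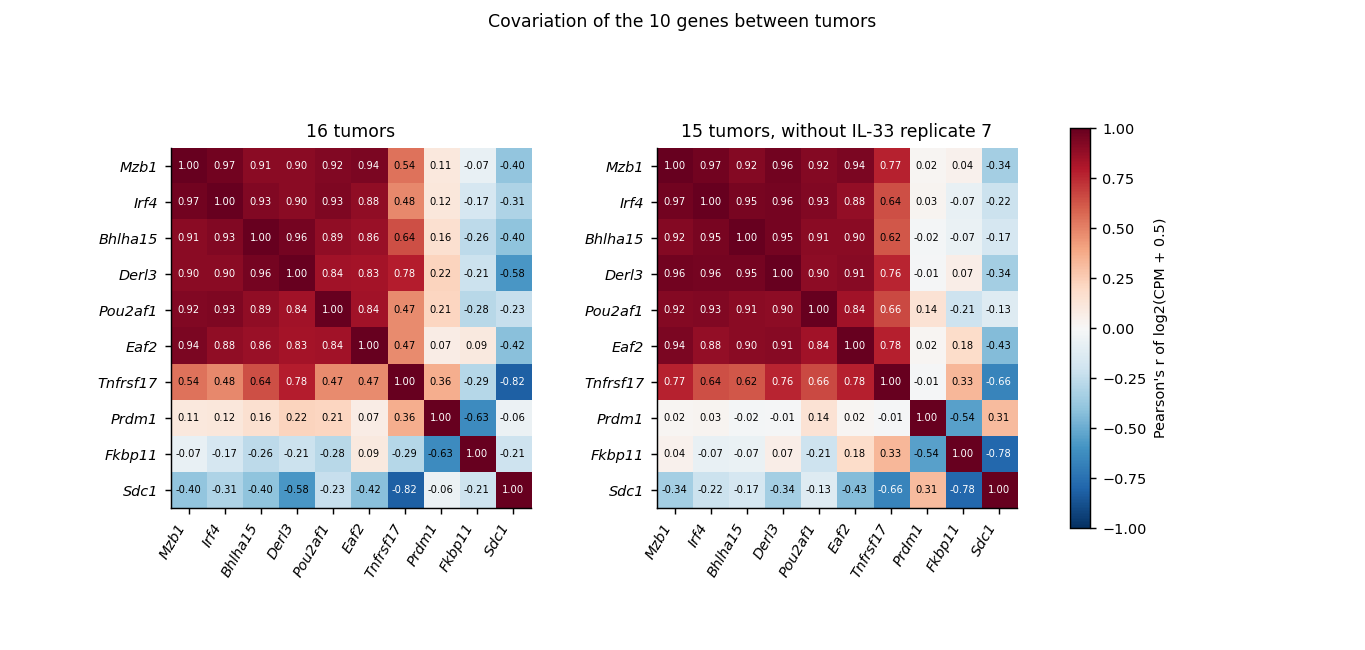
Pearson's r of log2(CPM + 0.5) for each pair of the 10 genes over 16 tumors (left) and over 15 tumors without IL-33 replicate 7 (right), on a color scale from -1 (blue) to 1 (red). The block of 6 genes at the upper left holds values from 0.83 to 0.97 on the left and from 0.84 to 0.97 on the right, and the rows of Prdm1, Fkbp11 and Sdc1 are pale or blue against it.

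The tumors themselves were ordered alike by the 6 genes. IL-33 replicates 4 and 8 were among the 3 highest tumors for all 6, with summed levels of 129 and 112 CPM over the 6 genes. IL-33 replicates 7 and 5 followed at 46.8 and 46.3 CPM. The highest vehicle tumor, replicate 2, was at 27.0 CPM, above 4 of the 8 IL-33 tumors. IL-33 replicate 6 was among the 3 lowest for 5 of the 6 genes, and its sum of 3.19 CPM lay within the range of the vehicle group, 1.70 to 27.0 CPM. The groups thus overlapped over most of the vehicle range, with 4 IL-33 tumors above it.

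IL-33 replicate 7 differed from the other high tumors in the balance of the genes. Among the 6 tumors with at least 100 Mzb1 reads, it had 85.0 Derl3 reads for every 100 of Mzb1, against 7.32 to 17.9 in the others. Its Bhlha15 reads numbered 31.6 for every 100 of Mzb1, against 4.07 to 11.1 in the others. Irf4, Pou2af1 and Eaf2 were within the range of the other tumors on the same measure. Female reproductive tract genes stood at 1244 CPM in that tumor, and their part in these ratios was not tested.

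The 10 genes were then set against summed marker lists across the 16 tumors, by Pearson's r and Spearman's rho of log2(CPM + 0.5). The genes were chosen with the covariation and immunoglobulin results of these tumors known, and genes and lists share libraries and tissue, so the values describe these tumors and no p is given. The summed level of 12 immunoglobulin constant genes, which encode the constant parts of antibody chains, was 14.3 to 1062 CPM in vehicle tumors and 10.4 to 2273 CPM in IL-33 tumors. Mzb1 followed it with r = 0.91 and rho = 0.92. Its r was 0.85 within the vehicle group and 0.95 within the IL-33 treatment group. Derl3 (r = 0.87, rho = 0.97), Irf4 (r = 0.84, rho = 0.89), Eaf2 (r = 0.83, rho = 0.91), Bhlha15 (r = 0.80, rho = 0.93), Pou2af1 (r = 0.77, rho = 0.76) and Tnfrsf17 (r = 0.64, rho = 0.84) also had positive values by both measures. Within the vehicle group r of these 7 genes was between 0.56 and 0.90, and within the IL-33 treatment group between 0.63 and 0.95. Leaving out the 2 tumors farthest from the median, IL-33 replicate 6 and vehicle replicate 1, gave r between 0.61 and 0.92.

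Prdm1 (r = 0.06, rho = 0.11) and Fkbp11 (r = 0.05, rho = 0.13) were near 0. Sdc1 was negative, at r = -0.54 and rho = -0.57, with r = -0.27 within the vehicle group, -0.64 within the IL-33 treatment group and -0.45 without IL-33 replicate 7.

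**Figure D4:**
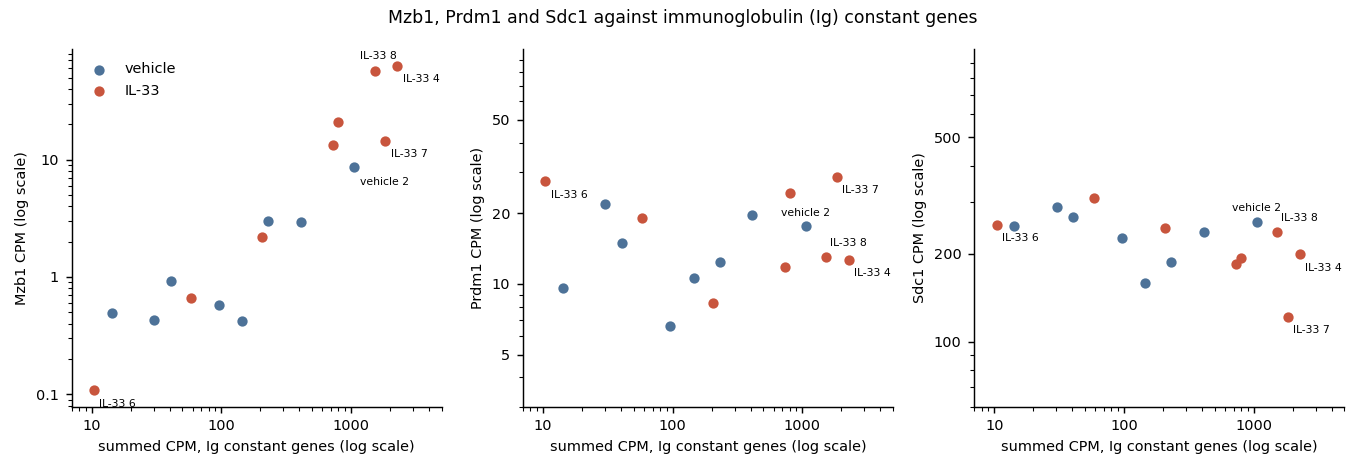
Level of Mzb1 (left), Prdm1 (middle) and Sdc1 (right) against the summed level of 12 immunoglobulin constant genes, in CPM on log scales, with 1 point per tumor in blue for vehicle and red for IL-33. Mzb1 climbs along the axis with r = 0.91, while Prdm1 (r = 0.06) and Sdc1 (r = -0.54) do not.

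The same 7 genes had the highest r with the summed level of 15 B cell identity genes, such as Pax5 and Cd79b, which mark the stage before the plasma cell. Derl3 was first at 0.82 (rho = 0.80) and Tnfrsf17 last of the 7 at 0.63 (rho = 0.63), with Pou2af1 at 0.73 (rho = 0.53). Over the 7 genes, r was 0.45 to 0.90 within the vehicle group, 0.73 to 0.94 within the IL-33 treatment group and 0.56 to 0.85 without vehicle replicate 2 and IL-33 replicate 7, the 2 tumors farthest from the median. The highest sum of this list was in vehicle replicate 2, at 137 CPM, next to IL-33 replicate 7 at 130 CPM and IL-33 replicate 4 at 117 CPM. Ebf1 gave 30.6 CPM of the sum in IL-33 replicate 7 and at most 3.33 CPM in the other IL-33 tumors. Bcl6 had the highest mean of the list (22.1 CPM with vehicle, 21.5 CPM with IL-33), followed by Cd37 (11.2 and 13.3 CPM). Pax5 was at 1.20 and 1.29 CPM, so the sum mostly reflects other genes. Mzb1 was at 8.58 CPM in vehicle replicate 2 and at 63.2 CPM in IL-33 replicate 4, so tumors of like B cell sums differed in this gene.

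**Figure D5:**
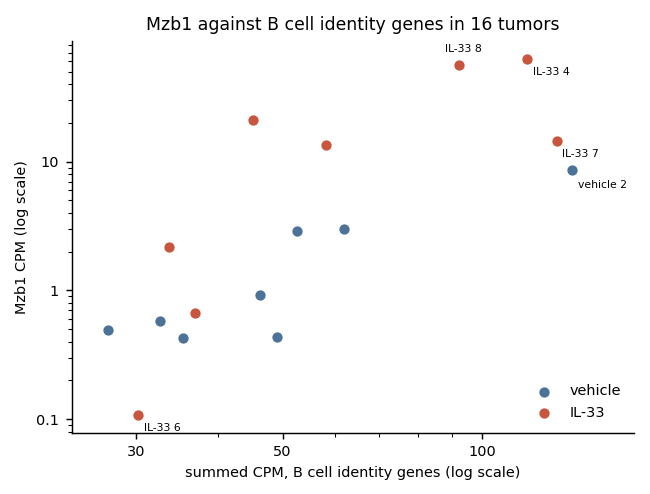
Mzb1 against the summed level of 15 B cell identity genes, in CPM on log scales, with 1 point per tumor in blue for vehicle and red for IL-33. Vehicle replicate 2 holds the largest B cell sum (137 CPM) with 8.58 CPM of Mzb1, below 5 of the IL-33 tumors.

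For the same 7 genes r was lower against the other 3 lists. With 12 T cell genes r was highest for Irf4 (r = 0.69, rho = 0.58), Mzb1 (r = 0.66, rho = 0.56) and Eaf2 (r = 0.64, rho = 0.51), and r of these 3 genes was 0.73 to 0.75 without vehicle replicate 7 and IL-33 replicate 6, the 2 tumors farthest from the median. With 12 epithelial genes r was lowest for Irf4 (r = -0.66, rho = -0.52) and Mzb1 (r = -0.59, rho = -0.54). Krt8 (mean 543 CPM with vehicle, 387 CPM with IL-33) and Krt19 (184 and 207 CPM) were the most abundant of that list. Outside IL-33 replicate 7 the epithelial sum therefore mostly reflects these 2 genes. Without IL-33 replicate 4 and vehicle replicate 4, the 2 tumors farthest from the median of that list, r was -0.42 for Irf4 and -0.40 for Mzb1. With 10 macrophage genes Sdc1 had r = -0.59 and rho = -0.70, at r = -0.61 within the vehicle group and -0.60 within the IL-33 treatment group, and the other 9 genes lay between -0.31 and 0.46. Prdm1 was the lowest of these 9, and its r with the T cell genes was -0.44. With the epithelial genes Prdm1 had r = 0.46, at 0.09 within the vehicle group and 0.80 within the IL-33 treatment group. Sdc1 had r = -0.16 and rho = 0.01 with the epithelial genes. Which cells these transcripts came from was not tested.

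Outside the 10 genes, those most like them were sought among 13881 genes with a mean of at least 0.5 CPM, immunoglobulin genes left out, by Pearson's r with the mean standardised log2(CPM + 0.5) of the 10. Jchain, the joining chain of secreted IgA and IgM, was first with r = 0.95 over 16 tumors, followed by Tent5c (0.95), Endou (0.94), Lax1 (0.93) and Ctse (0.92). Over the 15 tumors without IL-33 replicate 7 Tent5c (0.96), Jchain (0.95) and Endou (0.95) were the first 3, and St8sia6 (0.92) was among the first 5. Jchain spanned 0.89 to 80.8 CPM in vehicle tumors and 0.97 to 245 CPM in IL-33 tumors, with its highest level in replicate 4, as for Mzb1.

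Other genes of the program were taken from a list of 17 that holds Xbp1, Jchain and Slamf7 among others. At an unadjusted p under 0.05 in edgeR's test, 3 of the 17 were higher with IL-33 and 0 were lower. Over all genes tested, 9.99% were higher and 1.17% lower. The median log2 fold change of the 17 was 0.37. Jchain rose by 2.65 ± 1.05 (SE) on the log2 scale, Tent5c, a poly(A) polymerase that stabilises immunoglobulin transcripts, by 1.96 ± 0.70, and Trp53inp1 by 1.16 ± 0.31. The adjusted p of these 3 genes was 0.418 in edgeR's test. Slamf7 joined them without IL-33 replicate 7, where 1.83% of all genes tested were higher. Xbp1, the transcription factor that drives ER expansion, had a mean of 166 CPM (SD 45.7, n = 8) with vehicle and 208 CPM (SD 60.8, n = 8) with IL-33, a log2 fold change of 0.25 ± 0.16 (SE) that did not pass.

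The general secretory machinery, which every cell uses, was compared between the groups. Of 32 ER genes, 0 were higher at an unadjusted p under 0.05 in edgeR's test or in DESeq2, and 1 was lower, Calr, a calcium-binding chaperone, which fell by 0.41 ± 0.18 (SE) on the log2 scale. Over all genes tested, 9.99% were higher and 1.17% lower in edgeR's test. The median log2 fold change over the 32 genes was -0.12.

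Of the 12 immunoglobulin constant genes, 5 were higher and 0 lower at an unadjusted p under 0.05, with adjusted p between 0.418 and 0.443 in edgeR's test. Over all genes tested, 9.99% were higher and 1.17% lower at the unadjusted threshold. Igha rose by 3.14 ± 1.16 (SE) on the log2 scale, Ighg2c by 3.09 ± 1.16, Ighg3 by 2.96 ± 1.26, Iglc1 by 2.60 ± 1.08 and Igkc by 2.06 ± 0.97. Igha, the heavy chain of IgA, was at 838 CPM in IL-33 replicate 7 and at most 110 CPM elsewhere in that group, and its log2 fold change without that tumor was 1.08. Without IL-33 replicate 7, 3 of the 12 were higher at that threshold, where 1.83% of all genes tested were. Ighm, the heavy chain of IgM, had a mean of 65.5 CPM (SD 132, n = 8) with vehicle and 83.2 CPM (SD 80.5, n = 8) with IL-33, and a log2 fold change of 0.30 ± 1.05 (SE).

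Of the 15 B cell identity genes, 0 passed in edgeR's test in either direction and 1 was higher in DESeq2, both at an unadjusted p under 0.05, with a median log2 fold change of 0.22. The gene higher in DESeq2 was Fcer2a, with a log2 fold change of 3.32 there but -0.53 in edgeR's fit. Its mean was lower with IL-33 (0.25 CPM) than with vehicle (0.35 CPM), and 7 tumors had no read of it. The 4 of the 15 genes with the smallest p in edgeR's test were Cd79b (0.83 ± 0.62, SE), Bach2 (0.58 ± 0.44), Ebf1 (0.66 ± 0.59) and Bcl6 (-0.14 ± 0.23), none of which passed. Without IL-33 replicate 7, where Ebf1 was at 30.6 CPM against at most 3.33 CPM in the other IL-33 tumors, the log2 fold change of Ebf1 turned to -0.55 and that of Bach2 to -0.02. Vehicle replicate 2 decided the count, since 7 of the 15 were higher without it, as were 1538 of all 16770 genes tested. That tumor held the highest Pax5, at 5.95 CPM.

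Markers of other cells the tumors could hold were checked in the same fit, at the same threshold. None of 12 T cell, 10 macrophage and 5 tested survival factor genes passed in edgeR's test. Among the survival factors, Cxcl12 was at 625 CPM in IL-33 replicate 7 and its log2 fold change of 0.99 turned to -0.71 without that tumor. None of 8 plasmacytoid dendritic cell genes passed with all tumors, and 1, Ccr9, was higher without IL-33 replicate 7. Of the epithelial genes 8 of 12 were higher, of the female reproductive tract genes 6 of 6 and of the lymphoid tissue genes 1 of 7 tested, Ccl21a. Over all genes tested, 9.99% were higher. Without IL-33 replicate 7, 0 genes were higher in each of the 3 lists, with 2 epithelial genes and 1 lymphoid tissue gene lower. In that fit 1.83% of all genes tested were higher and 2.29% lower. The part of these lists in the levels of the 10 genes was not tested.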

How the data were processed

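RNA from 8 vehicle and 8 IL-33 tumors was purified with polyT and sequenced. The authors deposited raw counts of reads per gene, without normalization. The submitters' processing notes name HISAT2, featureCounts and mm10, whose versions, annotation release and strand setting are not given in the sources used here. No column of per-sample values was left unused. Groups and replicate numbers were taken from the sample titles.

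Of the 22298 gene IDs, 22255 were named from GENCODE M21 (GRCm38). CPM values are relative to the total count of a tumor (14139268 to 24290794). Genes reaching a summed count of 10 in the 16 libraries were fitted with edgeR 4.0.16 in R 4.3.3 (TMM, glmQLFit, glmQLFTest, Benjamini-Hochberg adjustment), and fold changes and standard errors come from that fit. The fit was tested on simulated counts. DESeq2 1.42.0, upper-quartile scaling, other filters, a replicate block and each tumor left out in turn were alternatives. DESeq2 was run at its default settings, which include a replacement of outlier counts. The combination of DESeq2 with the omission of IL-33 replicate 7 was chosen after seeing the data. Correlations used log2(CPM + 0.5). Those with marker lists were also put to a two-sided permutation test (100000 resamples, adjusted over 50 relations). Its results are left out, since the genes were chosen with these relations known. The motif and correlation steps used Python 3.11.15, numpy 2.4.6, scipy 1.17.1 and pandas 2.3.3.

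The 10 genes and the 11 marker lists were chosen with earlier results of these data known. Named were the 10 genes, the list genes with an unadjusted p under 0.05 (or up to 4 with the smallest p in lists with none or over 6) and the 5 genes most like the 10, of which 1 is not reported here. Genes of the larger lists with none past the threshold were counted only. Xbp1, Slamf7, Ighm, Cxcl12, Krt8, Epcam, Ovgp1, Pax5, Cd37, Fcer2a and Ccr9 were named after their values had been seen. Floors cover counting error only. The SD values describe the spread between tumors, and the standard errors of the fit include that spread.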

Additional observations from a re-analysis of the deposited data

Results flagged for a closer look

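In each group of 8 tumors, the highest and lowest value of the 10 genes and of 11 summed marker lists was compared with its nearest neighbour by Dixon's ratio. Over 42 groups, 9 values stood apart. The threshold flags about 1 in 20 groups of independent, normally distributed values. CPM values here were skewed and the groups share tumors, so that rate does not apply and nothing is read from the number flagged.

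Of the 10 genes only Tnfrsf17 had such a value, 0.912 CPM in IL-33 replicate 7, which rests on 16 reads. In the same tumor the summed levels of the female reproductive tract genes (1244 CPM), the plasma cell survival factors (665 CPM) and the lymphoid tissue genes (249 CPM) were far above those of the other IL-33 tumors. Whether the Tnfrsf17 reads and these transcripts share a source was not tested.

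In vehicle replicate 4, the tumor with the highest Fkbp11, the summed level of the other plasma cell genes (612 CPM) and of the ER secretory machinery (9220 CPM) lay far below the rest of the group. In vehicle replicate 7 the survival factors (143 CPM), T cell genes (120.0 CPM) and macrophage genes (3145 CPM) lay far above it, while none of the 10 genes was at an extreme there. Among the other plasma cell genes, Txndc5 (342 CPM), Xbp1 (166 CPM) and Itm2c (140 CPM) had the highest vehicle means, against 15.5 CPM for Jchain. The sum of that list thus mostly reflects those 3 genes.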

How the results depend on the processing

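The counts of genes depended on single tumors. Leaving out each tumor in turn gave between 289 and 1902 genes higher (the lowest without IL-33 replicate 7) and between 111 and 362 lower at an unadjusted p under 0.05. Lower genes numbered 111 with vehicle replicate 4 left out, 126 with IL-33 replicate 5, 307 with IL-33 replicate 3 and 362 with IL-33 replicate 7 left out. Genes with a fitted fold above 0 numbered 8 to 9 of the 10 plasma cell program genes in those fits. Over all genes tested, the share above 0 was lowest without IL-33 replicate 7 (47.9%) and highest without vehicle replicate 1 (60.5%). Other plasma cell genes higher numbered 3 to 5 (5 without vehicle replicate 7 or IL-33 replicate 6). ER genes higher numbered 0 in each fit, and B cell identity genes higher 0 to 7 (7 without vehicle replicate 2). The median r over pairs ranged from 0.15 to 0.37. DESeq2 gave 424 genes higher, filterByExpr 498, and DESeq2 without IL-33 replicate 7, an alternative chosen after seeing the data, 286 higher and 392 lower, of which 1 lower gene had an adjusted p under 0.05. Under filterByExpr 5 of the 10 genes had a fold above 0, as did 53.8% of all genes tested there. Bhlha15, Tnfrsf17 and Eaf2 were too low to be tested in that fit. B cell identity genes higher numbered 1 under DESeq2, with or without IL-33 replicate 7. Fkbp11 turned to 0.10 under DESeq2, to 0.20 under DESeq2 without IL-33 replicate 7 and to 0.10 without vehicle replicate 4, and the cause was not tested (its range with each tumor left out was -0.48 to 0.10). Tnfrsf17 is limited by its 8 vehicle and 29 IL-33 reads.

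Tumors of the 2 groups share replicate numbers. Their deviations from the group means correlated at r between -0.304 and 0.362, and 1 of 8 vehicle tumors was closest to its own number, so the numbers were not taken as pairs. With the replicate block, 246 genes were higher and 72 lower. In that fit 8 of the 10 genes had a fold above 0, as did 53.8% of all genes tested. Of the 6 genes at an unadjusted p under 0.05, 3 kept it (Mzb1, Derl3 and Eaf2) while Irf4, Bhlha15 and Pou2af1 did not. With the same block 1 B cell identity gene was higher.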
